A study of Mus musculus with 3 samples.

Results

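The 4 vascular connexin genes Gja1, Gja4, Gja5 and Gjc1 were followed through the cell classes of sorted mouse small-intestinal endothelial preparations. They were chosen by symbol, 4 of the 32285 genes in the matrices, and all 4 had UMIs (unique molecular identifiers, each a counted transcript molecule) in the kept cells. The study has 3 libraries of a single group. Each was a pool of small intestine, duodenum left out, from 4 wild-type C57Bl/6 females aged 9 to 10 weeks, and nothing distinguishes the libraries by treatment or genotype. The tissue was cleared of epithelium, digested for 60 min at 37 °C and sorted in an enriched mode for live CD45- CD31+ PDPN+ cells, CD31 being a pan-endothelial and PDPN (podoplanin) a lymphatic surface protein. Because a library is a pool, spread between libraries may be technical, and p-values reach no further than these 3 pools.

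Connexins are the membrane proteins of gap junctions. Connexins assemble into a hemichannel, and hemichannels of neighbouring cells dock to a channel that passes ions and small molecules. In blood vessels Cx37 (Gja4) and Cx40 (Gja5) are the connexins of arterial endothelium, Cx43 (Gja1) is the broadly used one, and Cx45 (Gjc1) is known from smooth muscle and pericytes. In lymphatic vessels Cx37 and Cx43 are known for their part in valves.

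On the mouse GRCm38 build with GENCODE M21 annotation, Gja1 lies at chr10:56377330-56402513 on the plus strand and Gja4 at chr4:127311421-127314039 on the minus strand. Gja5 lies at chr3:96904693-97077416 on the plus strand and Gjc1 at chr11:102799579-102819700 on the minus strand. All are protein-coding. RefSeq starts on GRCm38.p6 were matched for 3 of the 4 genes, not for Gjc1. The 250 bases ahead of each start are shown to put beside the RNA levels the sequence that precedes each transcript. The letters TGANTCA were searched as the AP-1 motif. AGATAA was searched for GATA factors. CCACCC was searched for KLF factors. TGTTTAC was searched for FOX factors. ACAATG was searched for SOX factors. GTGGGAA was searched for RBPJ, the DNA-binding partner of Notch. Both strands were read, and capitals mark the matches.
Gja1: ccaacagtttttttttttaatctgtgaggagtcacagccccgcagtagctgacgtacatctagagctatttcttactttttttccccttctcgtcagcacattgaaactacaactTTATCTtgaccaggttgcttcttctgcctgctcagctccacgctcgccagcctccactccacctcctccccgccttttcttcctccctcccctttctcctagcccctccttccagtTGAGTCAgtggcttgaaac
Gja4: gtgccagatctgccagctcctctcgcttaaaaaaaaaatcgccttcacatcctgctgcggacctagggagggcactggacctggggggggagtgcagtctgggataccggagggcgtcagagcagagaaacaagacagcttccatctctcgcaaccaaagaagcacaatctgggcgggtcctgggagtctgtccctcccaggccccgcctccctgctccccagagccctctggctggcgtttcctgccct
Gja5: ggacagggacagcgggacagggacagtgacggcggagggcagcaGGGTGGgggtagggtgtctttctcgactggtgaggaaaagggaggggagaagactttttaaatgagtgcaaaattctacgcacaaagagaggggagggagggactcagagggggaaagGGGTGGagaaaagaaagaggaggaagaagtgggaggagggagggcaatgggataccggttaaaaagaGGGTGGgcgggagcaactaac
These windows are chr10:56377050-56377299 (plus strand), chr4:127314040-127314289 (minus strand) and chr3:97032152-97032401 (plus strand). The Gja5 window lies inside the longer GENCODE gene span. Gja1 held an AP-1 match beginning 19 bases and a GATA match beginning 135 bases ahead of the start. Gja5 held 3 KLF matches, at 206, 88 and 21 bases ahead. No matches overlapped, and none of the 6 motifs was spelled in the Gja4 window. None of the 3 windows held the FOX, SOX or RBPJ letters. Among 32851 windows of the same length in the RefSeq table, 6.75% held the AP-1, 9.99% the GATA and 28.1% the KLF letters, against 3.17% for FOX, 10.7% for SOX and 5.42% for RBPJ. A match describes letters only, and the RNA counts do not bear on these bases.

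The libraries held 6931, 7678 and 9932 barcodes, of which 6359, 6707 and 9468 were kept, with median depths of 7979, 7264 and 6698 UMIs per cell. Between 13 and 30 barcodes were shared by a pair of libraries. Cells were classed by markers. Lymphatic endothelial cells (LEC; Prox1 at least 1 UMI and Lyve1 at least 5) made up 18954 cells, or 84.1% of those kept. Blood endothelial cells (BEC; Flt1 at least 3, Prox1 at 0) numbered 38, 86 and 82, mural cells (smooth muscle and pericytes) 23, 144 and 59, and fibroblasts 55, 234 and 113 in the 3 libraries. Of 6 LEC markers summed, 5 had UMIs in LEC, at 7602 to 9359 counts per 1000000 UMIs (CPM), with Mmrn1 at 0. In BEC the same list summed to 139 to 180 CPM, with Prox1 at 0 by the gate. Pdpn RNA was not confined to LEC. By library it was 258, 234 and 239 CPM in LEC, 241, 237 and 232 in fibroblasts, and 0, 21.1 and 48.5 in BEC. The BEC, mural cells and fibroblasts are cells that passed a sort not aimed at them. They may not represent their classes in the tissue.

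The BEC gate was mixed. Of its 206 cells, 73 (4, 22 and 47 by library) also met the marker criteria of another class, 66 of them those of mural cells. The summed mural markers in BEC were 1993, 6760 and 9744 CPM in the 3 libraries, against 106 to 154 in the other 133 BEC. These 133 met no other class's criteria but were not without other RNA: the summed fibroblast markers in them were 10.3, 26.4 and 923 CPM. Values for BEC are of the whole gate unless the 73 cells are said to be left out. Of the 226 mural cells, 104 fell into fibroblast clusters when cells were clustered, and 171 of the 402 fibroblasts also met mural markers. Among LEC, 391 cells (2.06%) met markers of another class.

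**Figure D1:**
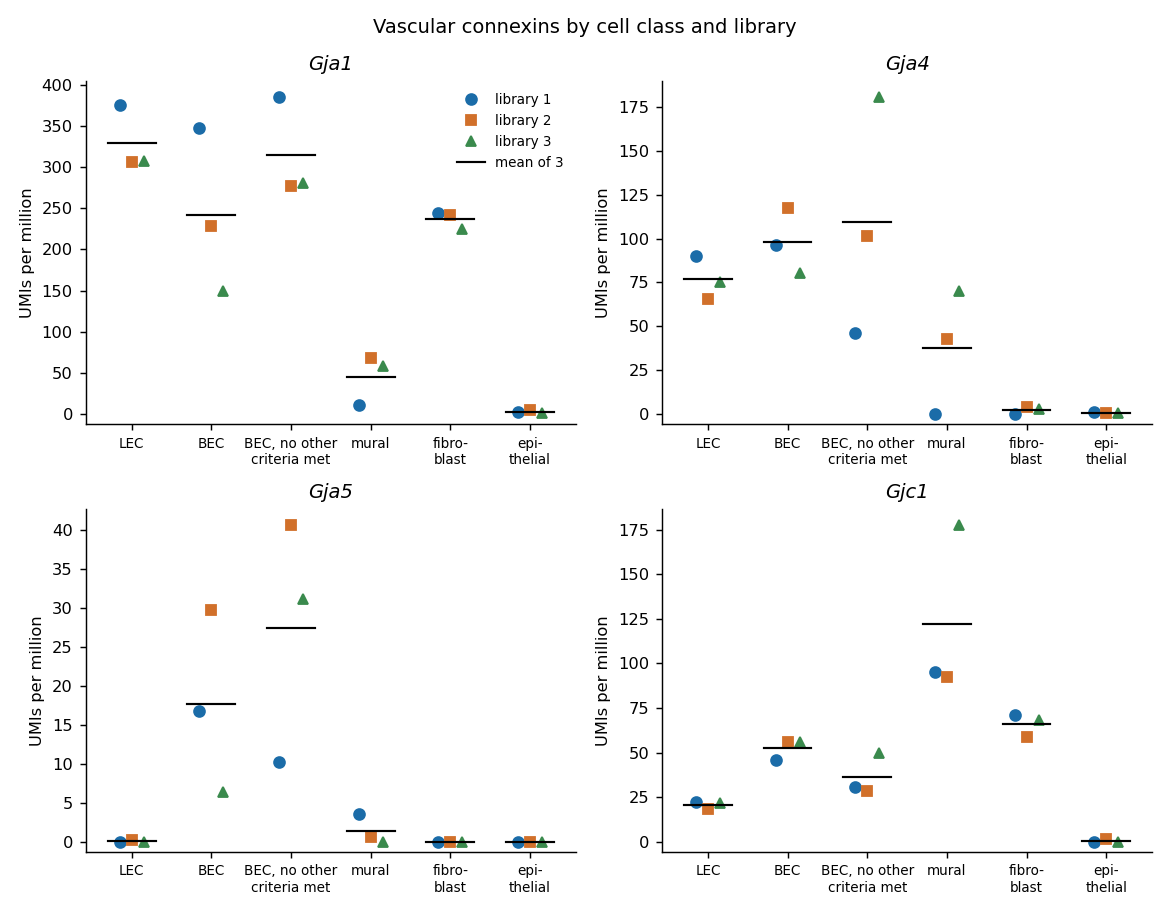
Level of each connexin (vertical axis, CPM, linear) in each cell class (horizontal axis) with 1 point per library and a bar at the mean of the 3. Gja1 sits above 200 CPM in LEC and fibroblasts and at 10.6 to 68.2 in mural cells, Gja4 is close to 0 in fibroblasts, Gja5 stands above 5 only in BEC, and Gjc1 is highest in mural cells.

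Gja1, which encodes Cx43, was abundant in lymphatic and blood endothelium and in fibroblasts and was low in mural cells. Its level in LEC was 375, 306 and 307 CPM in libraries 1 to 3, a mean of 329 ± 39.4 (SD, n = 3). In BEC it was 348, 228 and 150, a mean of 242 ± 99.6. The 133 BEC that met no other criteria had 385, 277 and 281, a mean of 314 ± 61.7, which overlapped the LEC values, as did those of the whole gate. Fibroblasts had 244, 242 and 224, with a mean of 237 ± 10.8.

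Gja1 in mural cells was at 10.6, 68.2 and 58.0 CPM, a mean of 45.6 ± 30.7, below each value of the other 3 classes. The log2 fold change of LEC over mural cells was 2.55 (SE 0.39, adjusted p = 0.00023), and that of BEC over mural cells was 2.07 (SE 0.40, adjusted p = 0.0031), both by edgeR's quasi-likelihood test. Mural cells were also below fibroblasts, by a log2 fold change of -2.06 (SE 0.39, edgeR adjusted p = 0.0035). LEC and BEC did not differ beyond the spread (log2 fold change 0.48, SE 0.34, edgeR adjusted p = 0.32), nor did BEC and fibroblasts (0.01, SE 0.35, edgeR adjusted p = 0.99). LEC were above fibroblasts in all 3 libraries, but the difference missed the threshold in edgeR (log2 fold change 0.49, SE 0.33, adjusted p = 0.26). Without cells that met markers of another class it was 0.81 (edgeR adjusted p = 0.017), and with classes from clusters 0.53 (edgeR adjusted p = 0.0078), so this call depended on how cells were classed. The order was LEC, BEC, fibroblasts and mural cells, and only the last step exceeded the error.

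Gja4, which encodes Cx37, was found in endothelium and in part of the mural cells. It reached 90.0, 65.6 and 75.2 CPM in LEC (mean 76.9 ± 12.3) and 96.3, 118 and 80.1 in BEC (98.0 ± 18.8). BEC were higher in each library, but the ranges overlapped, with a log2 fold change of -0.36 (SE 0.42, edgeR adjusted p = 0.57). With classes taken from clusters in place of gates, BEC were above LEC (log2 fold change -0.72 for LEC over BEC, edgeR adjusted p = 0.027). Without the mixed cells the BEC values spread from 46.2 to 181 CPM.

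In fibroblasts Gja4 had 0, 8 and 3 UMIs, or 2.27 ± 2.01 CPM. Endothelium was higher, with log2 fold changes of 4.77 (SE 0.66, edgeR adjusted p = 0.00011) for LEC and 5.13 (SE 0.69, edgeR adjusted p = 0.00031) for BEC. All 11 fibroblast UMIs lay in the 171 fibroblasts that also met mural markers. The other 231 had none, so LEC that met no other criteria were at least 56.6-fold higher, against a floor of 3 UMIs over the class. Where classes came from clusters the log2 fold change of LEC over fibroblasts was 2.26 (edgeR adjusted p = 1.8e-06), smaller than by gates.

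Mural Gja4 differed widely between libraries, at 0, 42.6 and 69.9 CPM (mean 37.5 ± 35.2). It was 3.96 (SE 0.74) above fibroblasts on the log2 scale (edgeR adjusted p = 0.0035), a call lost without library 2 (adjusted p = 0.076). The contrasts with LEC (log2 fold change 0.81, SE 0.46, edgeR adjusted p = 0.17) and with BEC (1.16, SE 0.49, edgeR adjusted p = 0.10) missed the threshold. The second passed it with no filter on low counts (1.21, edgeR adjusted p = 0.045) and with classes from clusters (0.94, edgeR adjusted p = 0.021). The cluster fit held no mural sum of library 1, where the mural clusters had only 12 cells. Of the 110 mural Gja4 UMIs, 107 lay in the 120 cells that clustering also placed with mural cells.

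Gja5, which encodes Cx40, was found mainly in BEC, with 4, 24 and 6 UMIs in the 3 libraries against 1, 9 and 0 in the far more numerous LEC. These made 16.7, 29.7 and 6.33 CPM in BEC (17.6 ± 11.7), and 10.3, 40.7 and 31.2 in the 133 that met no other criteria. Fibroblasts had 0 UMIs, epithelial cells had 0 and mural cells had 2. Pooled over libraries, BEC were 263-fold above LEC (95% interval 127 to 596, counting error only), and 1152-fold (401 to 4531) where cells that met other criteria were left out of both. Without library 2, which held 9 of the 10 LEC UMIs, the ratio was 942 (134 to 40862), from 10 UMIs against 1. BEC were 21.7-fold above mural cells (5.56 to 186). BEC were at least 20.7-fold above fibroblasts, with the floor of 3 UMIs over the class. Library 2 gave 24 of the 34 BEC UMIs, and a value above LEC was seen in each library.

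Gja5 was too low for the filter on low counts, so it was left out of the test that the other members entered. With no filter its log2 fold change of LEC over BEC was -7.94 (edgeR adjusted p = 1.8e-06). Without library 3 it passed the filter, at -7.70 (edgeR adjusted p = 0.0052), and without library 1 or 2 it did not. With classes from clusters it was tested too, at -11.2 for LEC over BEC (edgeR adjusted p = 9.8e-07), -5.26 over fibroblasts (edgeR adjusted p = 0.0059) and -4.99 over mural cells (edgeR adjusted p = 0.045). The fibroblast clusters also held 62 of the 206 gated BEC and 109 gated LEC, while gated fibroblasts had 0 Gja5 UMIs. Which of their cells carried Gja5 was not tested. The mural value rested on libraries 2 and 3, as the mural clusters of library 1 had 12 cells. In the fit with no filter 8.69% of 22053 genes were called higher in BEC. Only 16 of the 206 BEC carried its 34 UMIs, and 1 cell of library 2 held 8 of them together with 6 Gja4 and 37 Gkn3 UMIs, Gkn3 being an arterial marker. The 10 UMIs of LEC came from 5 cells. Of these, 4 cells with 9 of the UMIs had at least 15 UMIs of Flt1, a blood endothelial marker, which 14 LEC in all reached. Of the 5 LEC with Gja5, 4 fell into BEC clusters.

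Gjc1, which encodes Cx45, ran the other way, highest in mural cells and lowest in LEC. Mural cells had 95.4, 92.6 and 178 CPM (122 ± 48.4), fibroblasts 71.1, 58.7 and 68.5 (66.1 ± 6.56), BEC 46.1, 55.7 and 55.9 (52.6 ± 5.63) and LEC 22.2, 18.1 and 21.6 (20.6 ± 2.21). The LEC values were below every value of the other 3 classes. By edgeR, LEC were below mural cells by a log2 fold change of -2.65 (SE 0.19, adjusted p = 1.9e-06) and below fibroblasts by -1.65 (SE 0.19, adjusted p = 2.3e-05). BEC were below mural cells (-1.22, SE 0.21, edgeR adjusted p = 0.0018), and BEC and fibroblasts did not differ beyond the spread (-0.23, SE 0.21, edgeR adjusted p = 0.48).

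The step from LEC to BEC was smaller, and not called, without the mixed cells. It was -1.42 (SE 0.21, edgeR adjusted p = 0.00031) with all gated cells and -0.79 (edgeR adjusted p = 0.063) without cells that met markers of another class. In the latter setting BEC were at 30.8, 28.5 and 49.9 CPM, against 22.3, 17.8 and 21.5 in LEC. Of 11 alternative settings 10 kept the call. The 73 mixed BEC held 81 of the 109 Gjc1 UMIs of the gate, at 70.6 CPM, and the other 133 held 28, at 33.1. Mural cells exceeded fibroblasts by a log2 fold change of 1.00 (SE 0.20, edgeR adjusted p = 0.0046), and the adjusted p was 0.057 without library 2 and 0.079 without library 3. Glia, 27 cells with 10 UMIs, stood at a pooled 60.6 CPM (29.1 to 112).

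The members called (edgeR adjusted p under 0.05) can be set against all genes. Each contrast among the 4 classes tested 10050 genes, of which 32.8% were called between LEC and BEC, 52.1% between LEC and mural cells and 44.7% between LEC and fibroblasts. The shares were 28.6% between BEC and mural cells, 28.9% between BEC and fibroblasts and 23.5% between mural cells and fibroblasts. Of the 3 members tested, the number called was 1, 2, 2, 2, 1 and 3 in the same order. With 3 members and such shares the counts by themselves single nothing out.

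Shares of cells with a UMI followed the levels once each cell was thinned to 3000 UMIs. Gja1 was seen in 57.7% of LEC (95% exact interval 56.9% to 58.4%), 43.8% of BEC, 36.7% of fibroblasts and 11.9% of mural cells. Thinning left out shallower cells, 460 LEC, 14 BEC, 18 fibroblasts and 8 mural cells. Before thinning the shares were 81.5%, 67.0%, 59.5% and 19.9%. Median depths were 7050 UMIs in BEC, 8981 in fibroblasts, 9210 in mural cells and 7266 in LEC. Gja4 was seen in 18.5% of LEC, 22.4% of BEC and 24 of 218 mural cells, and Gjc1 in 26.1% of mural cells, 16.7% of fibroblasts, 13.5% of BEC and 5.77% of LEC. Gja5 was seen in 6.25% of BEC and in 0 of 18494 LEC at this depth, with an exact upper limit of 0.0199% of thinned cells. Before thinning the shares were 7.77% and 0.0264%. In T or innate lymphoid cells, used here as background, Gja1 was seen in 1.04% and the other 3 in 0 of 96 cells (exact upper limit 3.77%). Their median depth was 4660. Intervals and upper limits cover counting error only. In 550 epithelial cells the shares were 0.909% for Gja1 and 0.364% for Gja4 and for Gjc1. The 0.781% of fibroblasts with Gja4 lay near that background.

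**Figure D2:**
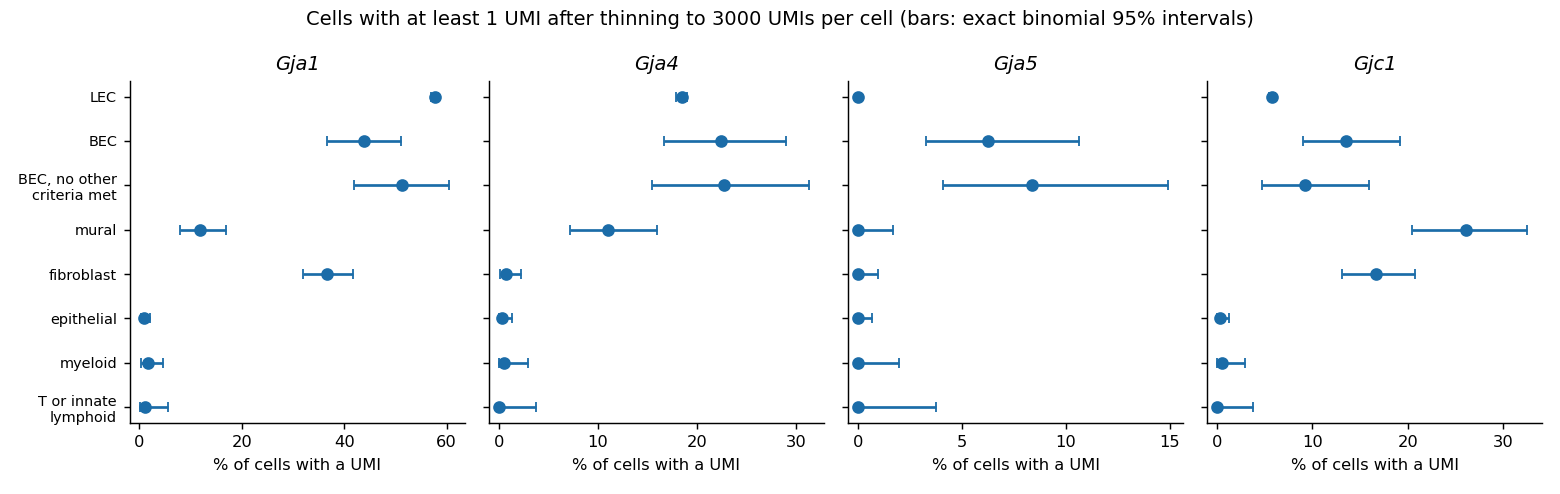
Percent of cells with at least 1 UMI of each connexin (horizontal axis) by cell class (vertical axis) after every cell was thinned to 3000 UMIs; bars are 95% intervals by the exact binomial method. LEC stand at 57.7% for Gja1 and 0% for Gja5, and mural cells are highest for Gjc1 at 26.1%.

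Within BEC, Gja4 and Gja5 lay mostly in cells with arterial genes. A cell counted as artery side when it had at least 2 UMIs over Sox17, Bmx, Sema3g, Gkn3, Fbln5 and Hey1, and as vein side with at least 2 over Ackr1, Madcam1, Sele and Selp. The 6 artery genes were not particular to endothelium. Their sum was 515, 704 and 366 CPM in BEC and 403, 367 and 328 in fibroblasts, where Sox17 and Gkn3 were at 0. Mixed cells could thus reach the artery side through other RNA, which was not tested. Of the 34 Gja5 UMIs 32 were on the artery side, which held 121 of the 206 cells. Among the 133 BEC that met no other criteria, the artery side (65 cells) had 201 Gja4 CPM (95% Poisson interval 158 to 252) and the neither group (48 cells) 61.7 (32.9 to 106). By library, Gja4 on that artery side was 89.6, 238 and 232, against 15.5, 52.5 and 114 in the neither group, so it was higher on the artery side in each library. Gja5 was 67.1 (43.4 to 99.0) against 9.49 (1.15 to 34.3). By library it was 22.4, 98.5 and 44.2 on the artery side against 0, 13.1 and 14.3. Library 2 gave 19 of the 25 UMIs of that side, and without it the pooled values were 33.4 and 7.44.

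Gja1 showed no such division, at 343 (287 to 408) on the artery side and 408 (327 to 504) in neither. Gjc1 was 21.5 (9.27 to 42.3) against 52.2 (26.1 to 93.4), a direction that came from library 3. By library it was 33.6, 25.9 and 0 on the artery side against 31.0, 13.1 and 114, and without library 3 the pooled values were 28.3 and 21.3. The vein side had 4 cells, all of library 2, with 14 Gja1 UMIs and 0 of the other members, with an exact Poisson upper limit of 115 CPM. Another 16 cells with both sets of genes had 28 Gja1, 9 Gjc1 and 0 Gja4 or Gja5 UMIs. No test was made between these sides, which hold too few cells per library.

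Mural cells were split by Rgs5, a pericyte and vascular smooth muscle gene, and Actg2, the gamma actin of gut muscle. The vascular side had Rgs5 at 3 or more UMIs and Actg2 under 3. The visceral side had Actg2 at 3 or more and Rgs5 at 0. The vascular side had 50 cells (1, 28 and 21 by library), the visceral side 29 and the rest 147. Most mural cells were thus on neither side. As a group the rest held both genes, at a pooled 8026 CPM for Actg2 and 2321 for Rgs5. Pooled Actg2 was 3412 on the visceral side, and pooled Rgs5 was 5417 on the vascular side. Gjc1 was 383 CPM (315 to 462) on the vascular side, 78.0 (47.6 to 120) on the visceral side and 74.1 (62.6 to 87.0) in the rest. In libraries 2 and 3 the vascular values were 381 and 386, and the visceral ones 96.4 and 41.5.

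Gja4 was divided more sharply. Vascular mural cells had 57 and 31 UMIs in libraries 2 and 3, or 375 and 230 CPM, and pooled 304 (244 to 375). In these libraries Gja4 was 118 and 80.1 CPM in BEC and 65.6 and 75.2 in LEC. On the artery side of BEC that met no other criteria it was 238 and 232. No test was made between these groups. Visceral cells had 3 UMIs (11.7 CPM, 2.41 to 34.2) and the rest 19 (9.51 CPM, 5.73 to 14.8). The single vascular cell of library 1 had 0. Thus 88 of the 110 mural Gja4 UMIs lay in 50 cells. Such cells numbered 1 of 23, 28 of 144 and 21 of 59 mural cells in the 3 libraries. In the vascular cells Flt1 had 1, Cdh5 12 and Pecam1 15 UMIs. Of the latter pair 11 and 14 were in library 3 and 1 each in library 2. The mural gate itself held Flt1 under 3 UMIs per cell, so the Flt1 count was limited beforehand. The part of endothelial RNA in the Gja4 level was not tested. Gja1 was low on each side, at 38.0 (19.0 to 68.0) and 42.9 (21.4 to 76.7), and Gja5 had 0 UMIs on both.

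Fibroblasts divided in Gja1. Those that also met mural markers had 246, 350 and 287 CPM (295 ± 52.4), and the rest had 243, 149 and 187 (193 ± 47.4). The first was higher in each library, and the groups did not overlap, by a narrow margin. No test was made between them. Gjc1 was 79.7 ± 11.6 in the first and 56.8 ± 11.5 in the second.

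**Figure D3:**
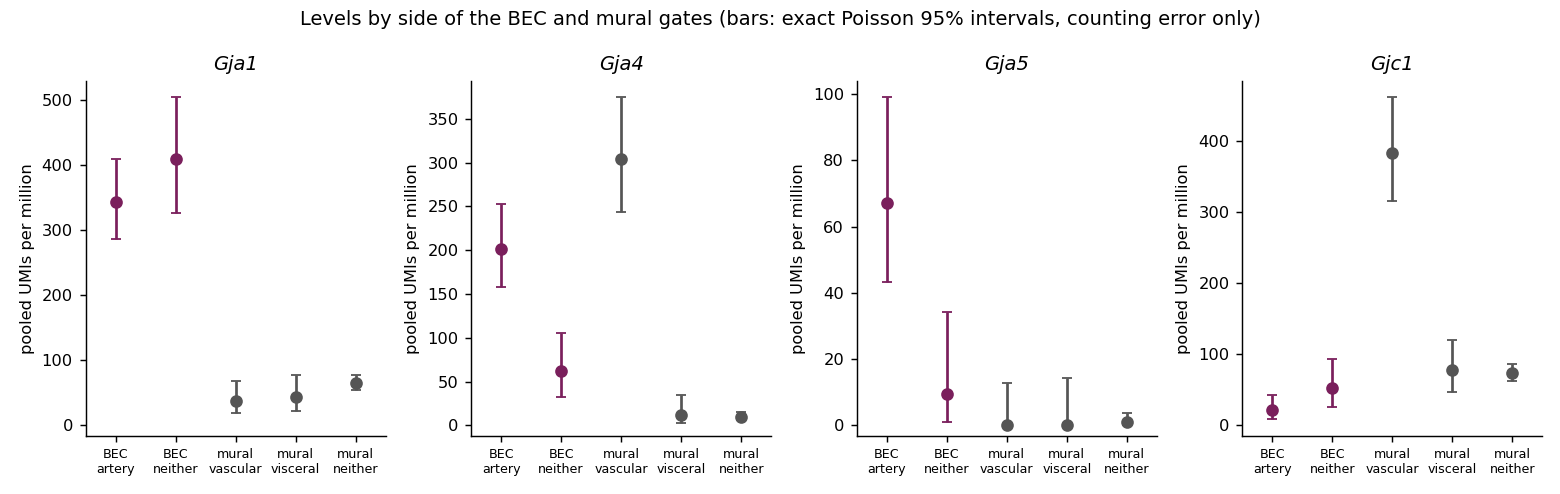
Pooled level of each connexin (vertical axis, CPM, linear) in BEC that met no other criteria and in mural cells, split by arterial, vascular and visceral genes (horizontal axis); bars are exact Poisson 95% intervals over the pooled UMIs and cover counting error only. Gja4 and Gjc1 stand at 304 and 383 in vascular mural cells, and Gja4 and Gja5 are higher on the artery side of BEC.

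Within LEC the question was whether connexin levels go with Itih5, which encodes a heavy chain of the inter-alpha-trypsin inhibitor family, or with Clca3a1, which encodes a chloride channel accessory protein. Itih5 was seen in 46.8% of LEC, Clca3a1 in 25.7%, and both in 7.25%. Neither gene was confined to LEC. By library, Itih5 was 186, 134 and 173 CPM in LEC and 959, 694 and 869 in fibroblasts. Clca3a1 was 67.4, 73.0 and 52.4 in LEC and 285, 194 and 145 in BEC. The vascular connexins differed little along these genes. Cells with Itih5 were deeper (median 8110 UMIs) than cells without (6696), while the sides of Clca3a1 were close (7384 and 7228).

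Gja1 was 359, 291 and 299 CPM in LEC with Itih5 only (316 ± 37.3) and 394, 338 and 316 in LEC with Clca3a1 only (350 ± 40.2). It was lower with Itih5 in each library, although the 2 ranges overlapped. The log2 fold change was -0.20 (SE 0.05, edgeR adjusted p = 0.025), a small difference that missed the threshold when any single library was left out (edgeR adjusted p from 0.051 to 0.091) and after thinning (-0.14, edgeR adjusted p = 0.061). For Itih5 against none of it the value was -0.15 (SE 0.04, edgeR adjusted p = 0.040), and after thinning -0.07 (edgeR adjusted p = 0.28). Leaving out any single library gave an edgeR adjusted p from 0.083 to 0.099. For Clca3a1 against none of it the value was 0.10 (SE 0.03, edgeR adjusted p = 0.057), and 0.12 (edgeR adjusted p = 0.0032) without cells that met markers of another class.

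Gjc1 went the opposite way, at 23.7, 20.7 and 23.7 with Itih5 only (22.7 ± 1.74) and 20.5, 14.9 and 16.9 with Clca3a1 only (17.4 ± 2.86). The sides did not overlap. The log2 fold change was 0.34 (SE 0.08, edgeR adjusted p = 0.024). It was 0.16 after thinning (edgeR adjusted p = 0.51) and 0.33 with DESeq2 (adjusted p = 0.27). Clca3a1 against none gave -0.25 (SE 0.05, edgeR adjusted p = 0.023), and after thinning -0.10 (edgeR adjusted p = 0.72), while Itih5 against none gave 0.15 (SE 0.05, edgeR adjusted p = 0.10). Without library 3 neither Gjc1 call held (edgeR adjusted p = 0.20 and 0.15), and without library 2 the first missed it (edgeR adjusted p = 0.052). Without the library as a block none of the Gja1 and Gjc1 calls within LEC held (edgeR adjusted p from 0.15 to 0.80).

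Gja4 did not differ beyond the spread, at 81.1 ± 15.5 with Itih5 only and 77.0 ± 6.50 with Clca3a1 only (log2 fold change 0.01, SE 0.08, edgeR adjusted p = 0.95). Gja5 had 5 UMIs in LEC with Itih5 and 5 in those without. By Clca3a1 they divided 9 to 1. All 9 were of library 2, 8 of them in cells with 4 or more Clca3a1 UMIs. In that library Clca3a1 itself was 194 CPM in BEC and 73.0 in LEC. Since 9 of the 10 LEC UMIs also lay in the 4 cells with at least 15 Flt1 UMIs, most of these UMIs were in the LEC with Flt1 described above. Across the genome 20.7% of 12855 genes were called between Itih5 only and Clca3a1 only, 14.8% of 13985 for Itih5 and 14.9% of 13745 for Clca3a1. Of the 3 members tested, 2, 1 and 1 were called.

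**Figure D4:**
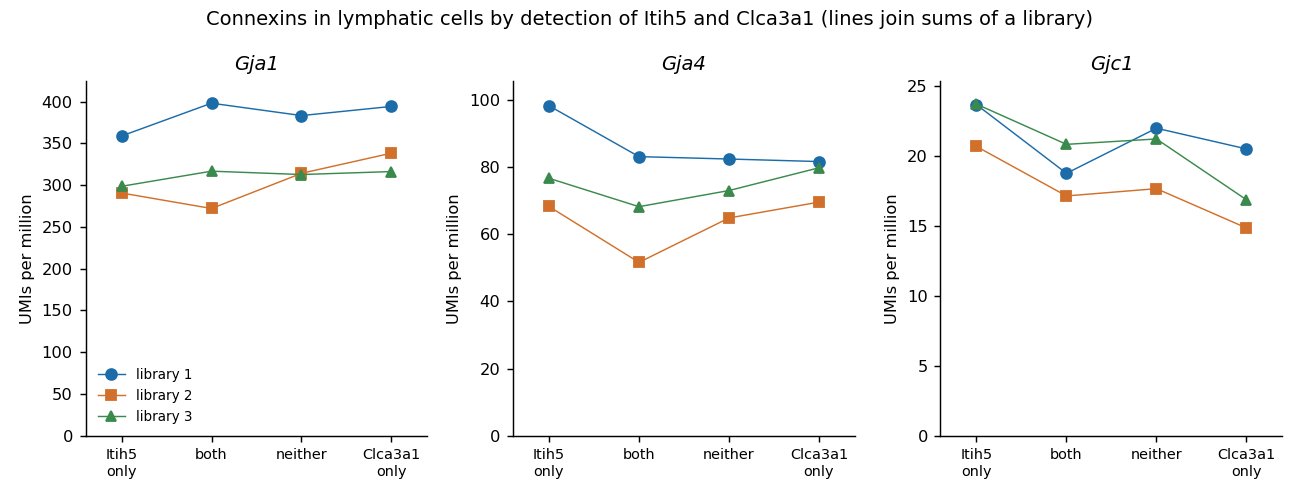
Level of Gja1, Gja4 and Gjc1 in LEC (vertical axis, CPM, linear, from 0) with Itih5 only, both, neither or Clca3a1 only (horizontal axis), 1 line joining the sums of each library. Gja1 has a mean of 316 with Itih5 only against 350 with Clca3a1 only, Gjc1 goes the other way at 22.7 against 17.4, and Gja4 is at 81.1 and 77.0.

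Over the number of Itih5 UMIs per cell, in steps of none, 1, 2 to 3, 4 to 7 and 8 or more, Gja1 was 342, 319, 318, 306 and 360 ± 35.6 CPM, so the cells with most Itih5 were not lower in Gja1. Gja4 was 74.7, 77.5, 76.2, 80.4 and 86.5 ± 26.3, and in library 2 its first and last steps were 66.7 and 60.1. Gjc1 was 19.3, 21.4, 21.3 and 20.8 in the first 4 steps and 31.4 ± 1.35 in the 502 cells with 8 or more, whose median depth was 10998 UMIs.

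**Figure D5:**
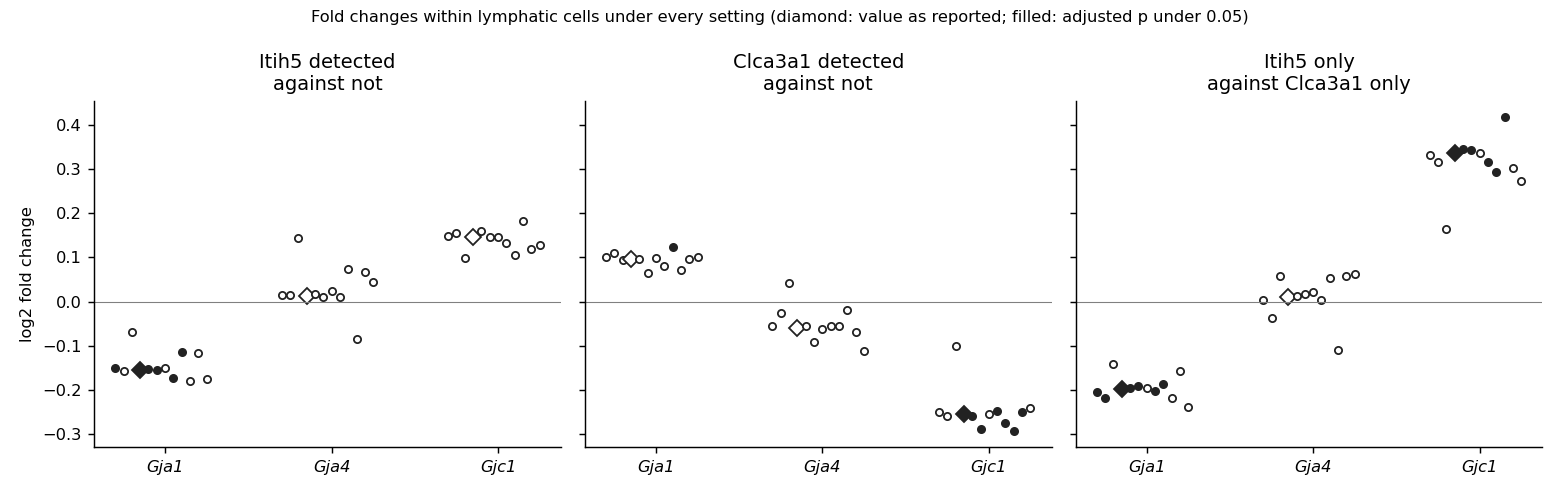
Log2 fold change (vertical axis) of Gja1, Gja4 and Gjc1 (horizontal axis) in the 3 comparisons within LEC under every setting run; each point is a setting, the diamond is the reported value and filled points passed an adjusted p of 0.05. All points lie within 0.5 of 0; those of Gja1 and Gjc1 are partly open.

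LEC were also split by detection of 4 valve genes, Foxc2, Cldn11, Itga9 and Gata2, splits chosen after the values were seen and not tested. Of the 12 pairs for Gja1, Gja4 and Gjc1, 5 were higher with the valve gene in all 3 libraries, 0 were lower in all 3 and 7 were mixed. The share of all genes that did so was not computed, so these counts single nothing out. Cells with each valve gene were also deeper. Median depths were 7696 UMIs with Itga9 against 6270 without, 7978 against 7142 for Gata2 and 7603.5 against 7220 for Cldn11. Gja1 was 404, 308 and 324 CPM with Foxc2, a transcription factor of lymphatic valves, against 369, 306 and 305 without, and 377, 313 and 314 with Itga9 against 364, 281 and 287. Gja4 was 93.6, 75.0 and 81.0 with Foxc2 against 89.2, 64.0 and 74.5. Gjc1 was 23.2, 20.8 and 24.6 with Gata2 against 21.9, 17.5 and 21.0, and it was also higher with Itga9. Each of these differences was smaller than the range over libraries on either side. Both sides of a split come from the same library, so that range does not measure the error of the difference. From cell to cell in thinned LEC, Gja1 counts were over-dispersed, with a variance of 1.31 to 1.46 times the mean by library, Gja4 with 1.39 to 1.42 and Gjc1 with 1.04 to 1.12. Itih5 gave 1.78 to 1.95. Gja4 was seen in 20.5%, 16.5% and 18.3% of LEC with Gja1 in the 3 libraries and in 21.1%, 17.5% and 17.4% of LEC without, with no common direction over the libraries.

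Other connexins and pannexins were mostly rare. Of 17 such genes 1 was tested between the classes. Panx1, a channel protein unrelated in sequence to connexins, was below BEC in LEC by a log2 fold change of -2.37 (SE 0.43, edgeR adjusted p = 0.0014), at 2.57 against 11.6 CPM, and was too low to be tested without the 73 mixed BEC. Gjb1 and Gjb2, known from epithelia, were at pooled 36.0 and 10.3 CPM in epithelial cells and at 0.980 and 3.50 in LEC. Gjc3 had 33 UMIs in the 27 glia, or 200.1 CPM.

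Among 12 genes for connexin partners, all tested between the classes, 1 was higher in LEC than in BEC, 3 were lower and 8 were not called. Their median log2 fold change was -0.07, against -0.01 over all genes tested. Tjp1, a scaffold that binds the Cx43 tail, did not differ between LEC and BEC (221 and 213 CPM, edgeR adjusted p = 0.94). Cav1, a caveolar protein, was higher in LEC (1066 against 630.1 CPM, log2 fold change 0.77, edgeR adjusted p = 0.038), and Dbn1, an actin-binding partner of Cx43, was higher in BEC (37.5 against 11.3, edgeR adjusted p = 2.9e-05). Against mural cells 6 partners were higher in LEC and 5 lower (median 0.02 against 0.05 over all genes). The endothelial cadherin Cdh5 was at 530.1 CPM in LEC and 13.5 in mural cells (edgeR adjusted p = 1.8e-05).

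Of 10 arterial and Notch genes, 9 were tested, 3 of them higher in BEC, 2 in LEC and 4 not called (median -0.28, all genes -0.01). Sox17, an arterial transcription factor, was 198 CPM in BEC and 0.753 in LEC (log2 fold change -8.19, edgeR adjusted p = 2.1e-05). Notch4, an endothelial Notch receptor, was 67.3 and 5.23 (edgeR adjusted p = 6.1e-06), and the Notch ligand gene Jag1 78.5 and 24.6 (edgeR adjusted p = 0.0046). Bmx, an arterial kinase gene, was higher in LEC, at 53.1 against 15.2 (edgeR adjusted p = 0.0050), and so was Notch1 at 409 against 217 (edgeR adjusted p = 0.018). Against fibroblasts 6 of the 9 were higher in LEC and none lower (median 4.08, all genes 0.07). Sox17, Bmx and Hey1 were among the genes that defined the artery side above. Without cells that met other criteria the edgeR adjusted p for LEC against BEC was 0.067 for Bmx and 0.22 for Cav1, so those calls were lost. The call of the partner Src was lost too (edgeR adjusted p = 0.78), and Cdh2 was no longer tested. By the same test Dbn1 (0.019), Sox17 (1.5e-07), Notch4 (1.7e-07), Jag1 (0.00062) and Notch1 (0.043) passed. New calls in that setting were Dll4 (edgeR adjusted p = 0.013) and Efnb2 (edgeR adjusted p = 0.0029), higher in BEC. The partner Nedd4 became higher in LEC (edgeR adjusted p = 0.0066).

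Of 10 lymphatic valve and flow genes, 4 were higher in LEC than in BEC, 2 lower and 4 not called (median 0.21, all genes -0.01). Itga9, the integrin chain of valve leaflets, was 234 CPM in LEC and 39.5 in BEC (log2 fold change 2.40, edgeR adjusted p = 1.8e-05), and Nfatc1 was 117 and 38.0 (edgeR adjusted p = 0.00029). The laminin chain Lama5 was higher in BEC (48.3 against 0.725, edgeR adjusted p = 6.2e-06), as was the flow-induced factor Klf2 (2244 against 1361, edgeR adjusted p = 0.012). All 4 passed without cells that met other criteria (edgeR adjusted p from 6.8e-08 to 0.00080). Other calls of this list changed in that setting. Foxc2, higher in LEC with all gated cells, was not called (edgeR adjusted p = 0.19), and Cldn11 was no longer tested. Fn1 became higher in LEC (edgeR adjusted p = 0.0014). Gata2 (edgeR adjusted p = 0.0014) and Piezo1 (edgeR adjusted p = 0.013) became higher in BEC.

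Along the split of LEC by Itih5 only against Clca3a1 only, 3 of 10 valve and flow genes were higher with Clca3a1, 2 with Itih5 and 5 not called (median -0.14, all genes 0.01). Foxc2 was 24.6 CPM with Clca3a1 only and 15.0 with Itih5 only (edgeR adjusted p = 0.00066), and Cldn11 26.9 and 13.8 (edgeR adjusted p = 0.00030). Of 9 arterial and Notch genes tested 3 were higher with Clca3a1, 1 with Itih5 and 5 not called (median -0.03, all genes 0.01). Bmx was 93.8 and 32.5 (edgeR adjusted p = 1.8e-05) and Efnb2, the arterial ephrin, 142 and 67.9 (edgeR adjusted p = 2.3e-05). Notch4 went the other way, at 2.80 and 6.80 (edgeR adjusted p = 0.0065). Of 11 partners tested 2 were higher with Clca3a1, 3 with Itih5 and 6 not called (median 0.05, all genes 0.01). Cav1 was 1304 and 944 (edgeR adjusted p = 0.00013) and Ccn3 38.5 and 19.8 (edgeR adjusted p = 0.00060). Their log2 fold changes of -0.52 for Cav1 and -1.01 for Ccn3 were larger than the -0.20 of Gja1.

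The genes whose levels over 15 sums, 5 classes in 3 libraries, were most like each member were ranked by Pearson r of log2(CPM + 1) among 9142 genes. Points of a class share its cells, and points of a library its pool, so r only describes. For Gja1 they were Ramp2, Tcf4 and Elf2 (r from 0.976 to 0.977). For Gja4 they were Sncg, Rock1 and Ktn1 (0.922 to 0.955). For Gja5 they were Zfp366, Orai1 and Cltb (0.924 to 0.958), and for Gjc1 Tgfb1i1, Kank2 and Gm26632 (0.980 to 0.990). Tgfb1i1 was 498 CPM in mural cells, 202 in fibroblasts, 174 in BEC and 58.5 in LEC, the same order as Gjc1. Zfp366 was 56.4 in BEC and 0.875 in LEC.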

How the data were processed

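Single-cell RNA of 3 libraries was read with 10x 3′ v3 chemistry, per the labels' protocols. The deposited matrices hold raw UMI counts per gene and barcode, from bcl2fastq 2.2, Cell Ranger 6.1.2 and mm10, per the submitters' processing notes. For the gene annotation, a release was not given in the sources used here.

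Kept barcodes had 500 or more genes and up to 15% mitochondrial UMIs. Classes came from marker gates. Mural and fibroblast cells needed 10 UMIs over 7 mural or 6 fibroblast markers with at least 3 of them seen, and 66 cells that met 2 gates were left without a class. No doublet caller was run. Cells that also met the markers of another class were left out in an alternative. Clusters (scanpy 1.11.5, leidenalg 0.10.2, resolution 1) served as an alternative to the gates. In that alternative the mural class of library 1 had 12 cells and did not enter the fit, so mural sums came from libraries 2 and 3 only.

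UMIs were summed per library and class, for sums of at least 20 cells, and tested in edgeR 4.0.16 (filterByExpr, TMM, glmQLFit, glmQLFTest, R 4.3.3) with the library as a block, because sums of a library share its pool of animals. P-values were adjusted by Benjamini-Hochberg over all genes tested other than gate genes, at a threshold of 0.05. DESeq2 1.42.0 was an alternative. Levels are CPM over all UMIs of a sum, with SD over libraries, and compare 1 gene between cells, not genes with each other. Pooled levels have exact Poisson and shares exact binomial 95% intervals. The fit was tested on simulated counts. The members and gene lists were chosen with earlier results of these data known. From each list up to 3 genes per direction with the largest change among those called were eligible to be named, if all 3 libraries moved the same way and the higher class reached 20 CPM. Tjp1, Panx1, Gjb1, Gjb2, Gjc3 and, within LEC, Notch4 were named outside this rule. Some genes of the lists are not reported here.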

Additional observations from a re-analysis of the deposited data

How the results depend on the processing

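Of 297 member values under an alternative setting, 255 kept direction and call, 26 lost and 6 gained the call, and 10 changed sign, all of them in differences that were not called. Unless a construction is named (fewer samples, fewer UMIs), the cause was not tested. With 34 UMIs in BEC and 10 in LEC, Gja5 was below the filter on low counts as reported. Pooled Gja5 ratios and levels of BEC sides with a library left out were added after the data were seen.

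Of members called, LEC against BEC gave 1 as reported, 2 with no filter on low counts, 0 without cells that met markers of another class, 3 with classes from clusters and 1 to 2 with a library left out. LEC against fibroblasts gave 2, and 4 from clusters. BEC against mural cells gave 2, and 4 with no filter and from clusters. BEC against fibroblasts gave 1, then 2 with no filter and from clusters and 1 to 2 with a library left out. Mural cells against fibroblasts gave 3, and 1 to 3 with a library left out, 1 without library 2. The Itih5 comparison gave 1, but 0 without the replicate block, after thinning to 3000 UMIs, with at least 2 UMIs of the splitting gene and with any library left out. The Clca3a1 comparison gave 1, but 0 with DESeq2, without the replicate block, after thinning and with at least 2 UMIs, 2 without cells of other markers, and 0 to 1 with a library left out. Itih5 only against Clca3a1 only gave 2, then 1 with DESeq2 and with at least 2 UMIs, 0 without the replicate block and after thinning, and 0 to 1 with a library left out.

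Of all genes called, thinning gave 2073 of 3298 between LEC and BEC, 2943 of 5235 between LEC and mural cells, 2864 of 4489 between LEC and fibroblasts, 1695 of 2874 between BEC and mural cells, 1872 of 2906 between BEC and fibroblasts, 1068 of 2365 between mural cells and fibroblasts and 1294 of 2067 for Itih5. Clusters gave 4424 between BEC and mural cells and 3844 between mural cells and fibroblasts. Leaving out a library gave 2059 to 2765, 3127 to 4671, 738 to 2662 (BEC and mural cells), 1354 to 2298 (BEC and fibroblasts) and 517 to 1842 (mural cells and fibroblasts), the lowest without library 2 in the last 4 and without library 3 in the first. Within LEC it gave 1216 to 2090 for Itih5, 1085 to 2065 for Clca3a1 against 2047, and 1236 to 2357 for Itih5 only against Clca3a1 only against 2657. DESeq2 gave 1064, 1152 and 1542 in these 3 comparisons. Without the replicate block they gave 26, 23 and 812. Without cells of other markers Itih5 gave 3174 and the third comparison 4052.

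The sign changes were in Gja1 between BEC and fibroblasts (reported 0.01), at -0.0044 with DESeq2, -0.031 with no filter on cells, -0.0078 with no filter on low counts, -0.029 with stricter gates, and from -0.24 to 0.24 with a library left out (below 0 without library 1 or 2). Gja4 changed sign for Itih5, from -0.086 to 0.066 with a library left out (below 0 without library 1), and for Clca3a1, at 0.042 after thinning. For Itih5 only against Clca3a1 only it was -0.038 with at least 2 UMIs and from -0.11 to 0.063 with a library left out (below 0 without library 1). With no filter on low counts the median log2 fold change of all genes moved to 0.40, 0.52 and 0.41 for LEC against BEC, mural cells and fibroblasts. It was 0.14 for LEC against BEC without cells of other markers, and from -0.16 to -0.05 with clusters in the other comparisons that moved by over 0.1.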
